A study of Mus musculus with 12 samples.

Results

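The clustered protocadherins are neuronal cell-surface adhesion molecules whose genes stand side by side in an alpha, a beta and a gamma cluster on 1 mouse chromosome. Members were taken by symbol (Pcdha, Pcdhb, Pcdhga and Pcdhgb with a number, and the Pcdhac and Pcdhgc genes). This gave 57 of the 21769 rows of the table, 13 in the alpha, 22 in the beta and 22 in the gamma cluster, and no member stood on more than 1 row. Poly(A) RNA of whole cortex from adult mice was sequenced in 3 Tet1 genotypes named WT, HxD and KO in the labels, with 4 libraries each. TET1 is a dioxygenase that oxidises 5-methylcytosine in DNA, and the study's title sets its catalytic against its non-catalytic functions. HxD also names the His-x-Asp motif that holds the catalytic iron of TET enzymes, though the allele itself is not defined in the labels. The labels give no strain, sex, age beyond adult or construction of the HxD and KO alleles, and no agent or further allele shared by the groups. Separate animals are not named for the 4 libraries of a genotype. The p-values thus reflect how much these libraries vary, which may be technical.

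In the alpha and gamma clusters, each variable first exon has its own promoter and encodes the extracellular cadherin repeats, the transmembrane part and a short cytoplasmic stretch, and it is spliced to constant exons that all members of the cluster share. Beta genes have a variable exon alone. A neuron expresses a small, largely random choice of the alternate members (the numbered alpha genes, the beta genes, and the gamma A and gamma B genes), while the C-type members (Pcdhac1, Pcdhac2, Pcdhgc3, Pcdhgc4 and Pcdhgc5) are switched on by other rules, several of them in most neurons. The proteins bind like molecules on facing membranes, which lets the branches of a neuron tell themselves from those of others. Promoter choice depends on CTCF and cohesin, which loop promoters to distant enhancers, and on DNA methylation, which keeps promoters silent.

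The shared exons matter for reading these values. In GENCODE M21, which held all 57 members, 13 of 13 alpha and 22 of 22 gamma transcripts have 4 exons, and 22 of 22 beta transcripts have a single exon. The first exon, the variable part, made up a median of 46.5% of an alpha and 55.1% of a gamma transcript. Of all stretches of 100 bases in a transcript, a median of 44.9% in alpha (range 42.4% to 52.3%), 55.9% in gamma (50.0% to 59.3%) and 99.8% in beta (92.3% to 100%) occurred in no other member. Reads from the constant exons therefore cannot be tied to a member by sequence. How the authors divided them is not given in the sources used here, so a level of a single alpha or gamma member is uncertain. Beta levels do not rest on that division. Sums over a cluster do not rest on it either, provided that its reads were kept and given to listed members, which was not tested. First exons also differed in their content of CpG, a dinucleotide at which DNA can be methylated. The ratio of observed to chance-level CpG had a median of 0.678 in alpha (0.439 to 0.773), 0.555 in gamma (0.345 to 0.780) and 0.386 in beta (0.286 to 0.490), beside 0.371 for the longest transcript of 21405 protein-coding genes. These regions are unlike. The first exon had a median of 2481 bases in alpha and 2604 in gamma. In beta it is the whole transcript, 2588 to 8695 bases, and the value over all genes is also from whole transcripts.

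Library totals ran from 8310783 to 10915574 counts in WT, against 7767787 to 10347432 in HxD and 5791642 to 9535409 in KO. Tet1 was listed at 0 in every WT and KO library and reached at most 67 counts in HxD, so it gave no check of the labels. Markers of excitatory cortical neurons summed to 2549 to 3732 CPM (counts scaled to a common library size) in WT, against 2330.0 to 3370 in HxD and 2226 to 2690.2 in KO, and those of inhibitory neurons to 1110 to 1428, 1270.4 to 1675 and 1307 to 1489. All 10 of these neuronal markers passed the filter on low counts. Myelin markers (8 genes) summed to 2002 to 4797 CPM in WT, against 1423 to 4234 in HxD and 3279 to 3864 in KO, and striatal projection neuron markers (8 genes) to 359 to 636, 232 to 1082 and 269 to 408. Choroid plexus markers (4 genes) reached 266 CPM in HxD 1, against at most 38.9 in a WT and 11.4 in a KO library. Astrocyte markers ranged from 1668 to 2438 CPM over all libraries, and microglial markers from 233 to 300.4 with Csf1r listed at 0 throughout. Endothelial markers (4 genes, Pecam1 listed at 0 throughout) summed to 63.1 to 101 CPM in WT, against 54.2 to 99.8 in HxD and 47.0 to 62.2 in KO. Every KO library lay below every WT library in this sum, which was mostly Cldn5 (mean 75.8 CPM in WT and 47.1 in KO). Slco1a4 went the other way, with means of 2.96 CPM in WT and 5.94 in KO, and Flt1 held at most 2 counts. The part of tissue makeup in the differences below was not tested, apart from a fit with the myelin markers as a covariate. In bulk tissue, fewer cells of a type and less RNA per cell cannot be told apart.

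Per kilobase of transcript, the gamma cluster stood highest in WT cortex, with a median over its members of 7.86 CPM per kb (0.114 to 48.9), against 2.003 in alpha (0.0293 to 25.4) and 2.06 in beta (0 to 7.91). The 3 highest members were all C-type. Pcdhgc3, known for promoting dendrite branching in cortical neurons, stood at 48.9 ± 8.004 CPM per kb (SD, n = 4). Pcdhgc5, known to act at inhibitory synapses, stood at 41.9 ± 11.7 CPM per kb. Pcdhac2, needed for the spacing of serotonergic axons, stood at 25.4 ± 3.84 CPM per kb. The first 2 ranges overlapped (41.7 to 60.2 for Pcdhgc3 and 31.5 to 57.5 for Pcdhgc5), and Pcdhac2 (21.6 to 28.8) lay below both.

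Among alternate members the highest per kilobase in WT were Pcdhga9 (15.2 ± 2.31 CPM per kb), Pcdhga11 (14.6 ± 3.87) and Pcdhgb1 (14.6 ± 5.67), which did not differ beyond their spread. In the alpha cluster Pcdha12 followed Pcdhac2 at 5.74 ± 1.52 CPM per kb. The beta cluster was headed by Pcdhb9 at 7.91 ± 1.30 and Pcdhb20 at 5.70 ± 0.556 CPM per kb. At the low end stood Pcdhgb2 (0.298 CPM per kb), Pcdha8 (0.291), Pcdha1 (0.135) and the 4 members that did not pass the filter. Pcdhb22 was listed at 0 in all 12 libraries, Pcdhb1 held 0 to 3 counts and Pcdha4 held 0 to 6 counts. Pcdhgb4 held 1 to 7 counts in 11 libraries and 96 in KO 2. For Pcdha4, Pcdhb1 and Pcdhgb4, two-sided exact permutation tests between genotypes gave unadjusted p of 0.257 to 1, where 0.0286 is the smallest that 4 against 4 libraries allow.

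Level followed position in the cluster unevenly. Across alpha members, Spearman's rho between WT level per kilobase and order in the cluster was 0.68 (n = 13 members), and 0.58 over the 11 alternate members without the C-types at the distal end. It was 0.11 in beta (n = 22), and 0.37 in gamma (n = 22) or 0.20 without its C-types (n = 19). The points share their libraries, and in alpha and gamma also the constant exons.

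**Figure D1:**
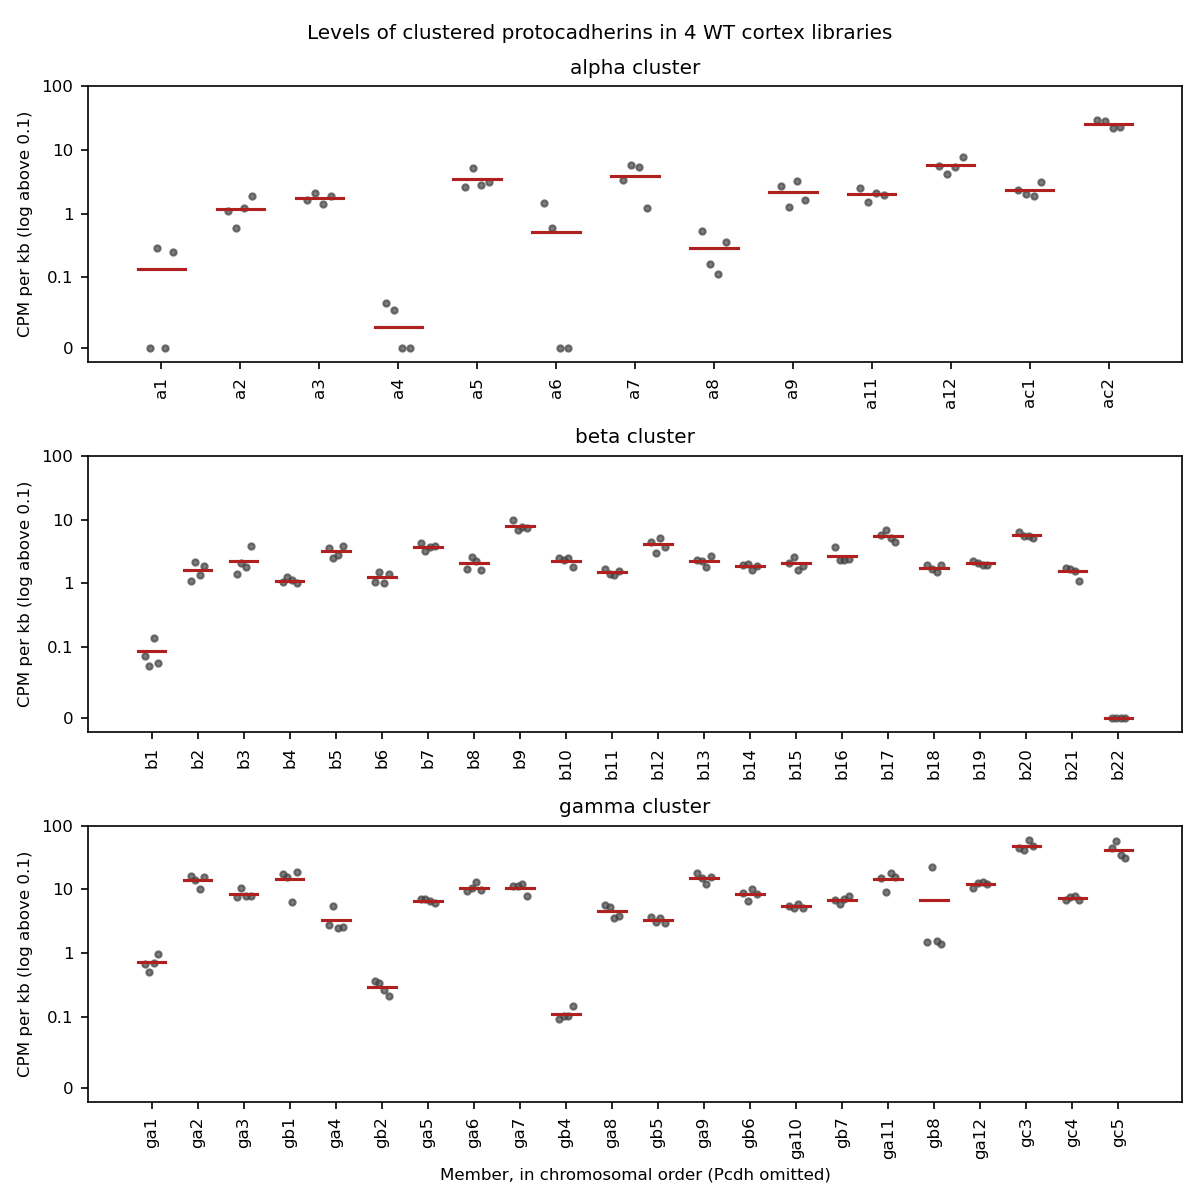
Levels of the 57 members in WT cortex, in CPM per kilobase of transcript (vertical axis, logarithmic above 0.1), along each cluster in chromosomal order (horizontal axis). Points are the 4 WT libraries. The C-type members Pcdhac2, Pcdhgc3 and Pcdhgc5 stand at the distal ends with means of 25.4, 48.9 and 41.9 CPM per kb.

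Summed over all members, the genes held 0.138% to 0.172% of a library's counts. The sum was 1662 ± 102 CPM in WT, against 1520.3 ± 70.3 in HxD and 1512 ± 112 in KO (SD, n = 4 each), and the ranges of the genotypes overlapped. By cluster, alpha summed to 275 ± 24.0, 248 ± 26.7 and 246 ± 30.6 CPM in WT, HxD and KO. Beta summed to 225 ± 13.0, 221 ± 16.1 and 227 ± 8.46 CPM. Gamma summed to 1162 ± 77.5, 1051 ± 87.1 and 1039 ± 76.5 CPM. In HxD 1 to 4 the gamma sums were 1155.5, 951.7, 1080.5 and 1017.5 CPM, with Pcdhga9 listed at 0 in HxD 2 and Pcdhgb1 at 0 in HxD 3. Whether reads were lost there was not tested. The 3 genotypes overlapped in all 3 clusters, and the beta means lay closest together, 1.56% lower in HxD and 0.8294% higher in KO than in WT.

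Sums over a subfamily within gamma or alpha, and C-type shares, do rest on how reads over the constant exons were divided, which is not known. The 12 gamma A members summed to 523, 509, 507 and 491 CPM in WT 1 to 4, to 347, 335, 433 and 367 in HxD 1 to 4, and to 415, 356, 391 and 404 in KO 1 to 4. Every library of either mutant lay below every WT library, and HxD and KO overlapped. The means were 508 ± 13.0 in WT, against 370.4 ± 43.5 in HxD and 392 ± 25.6 CPM in KO, 27.0% and 22.9% below WT. Both differences share the WT libraries, and a sum over members chosen with earlier results known was given no test.

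The gamma B members summed to 190.0 ± 48.5 CPM in WT, against 204 ± 74.0 in HxD and 223 ± 12.4 in KO. The gamma C-types summed to 464 ± 42.3, 477 ± 44.3 and 424 ± 64.4 CPM. Both overlapped between all genotypes. C-type members took 39.9% ± 2.26 of the summed gamma CPM in WT (37.6% to 43.0%), 45.4% ± 2.36 in HxD (43.3% to 47.7%) and 40.7% ± 3.62 in KO (37.2% to 45.6%). HxD thus lay above WT only by the narrow step from 43.0% to 43.3%. Pcdhga9 was listed at 0 in HxD 2 and Pcdhgb1 at 0 in HxD 3, which lowers the gamma sum that these shares are divided by. The part of these listed zeros in the step was not tested, and nothing is read from it. In alpha the alternate members summed to 113 ± 4.06, 89.3 ± 12.9 and 106 ± 17.4 CPM, with HxD 1 to 3 below every WT library and HxD 4, at 108.5, inside the WT range.

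**Figure D2:**
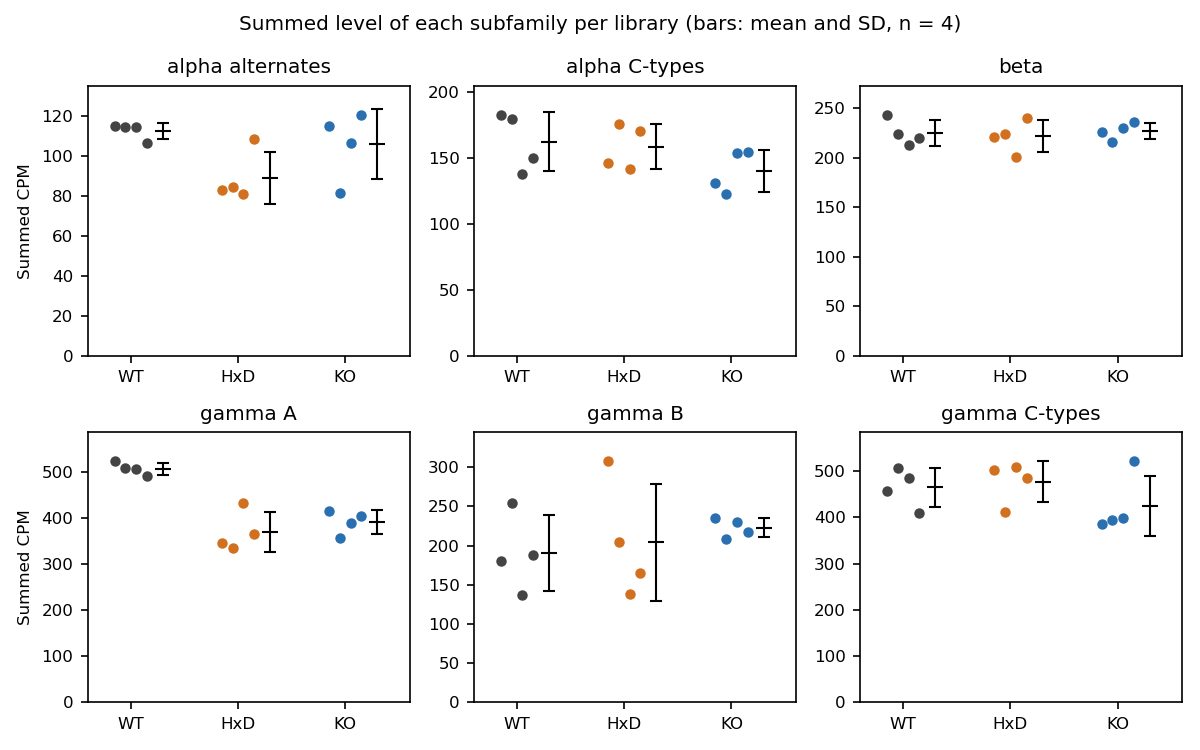
Summed CPM per library (vertical axes, from 0) for subfamilies of the clustered protocadherins, by genotype (horizontal axis). Points are libraries, and bars give the mean and SD of 4. The gamma A sum is lower in every HxD (335 to 433) and KO library (356 to 415) than in any WT library (491 to 523), while the beta sums overlap.

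HxD was compared with WT to ask what the HxD allele changes. None of the 53 members that passed the filter on low counts was called by edgeR's quasi-likelihood test at a Benjamini-Hochberg adjusted p below 0.05, beside 0.898% of all 11693 genes tested. At an unadjusted p below 0.05 edgeR gave 10 members (4.05% of all genes), 8 lower (2.15%) and 2 higher (1.90%). DESeq2 called 4 members (Pcdhb2, Pcdhga3 and Pcdhga12 lower, Pcdhgb6 higher; 1.48% of all genes) and limma-voom called 0. The libraries of HxD and WT did not overlap for 7 members (3.48% of all genes). Of these 5 were lower (1.72%), Pcdhac1, Pcdhb2, Pcdhb6, Pcdhga3 and Pcdhga12, and 2 were higher (1.76%), Pcdhgb6 and Pcdhgc4. Fitted values were below WT for 35 of 53 members, beside 48.7% of all genes, and the median log2 fold change was -0.11, beside 0.01 over all genes. By group the median was -0.35 in alpha, -0.07 in beta and -0.17 in gamma. Within gamma it was -0.27 for the A members, 11 of 12 of which were below WT, and -0.07 for the B members. The gamma median was -0.33 without HxD 1, -0.0493 without HxD 2 and -0.082 without HxD 3.

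KO was compared with WT to ask what the KO allele changes. By edgeR 0 of 53 members were called, beside 0.154% of all genes, and 10 had an unadjusted p below 0.05 (9.48% of all genes), 8 lower (5.26%) and 2 higher (4.22%). DESeq2 called 3 (Pcdhga3 and Pcdhga6 lower, Pcdhgb6 higher; 2.48% of all genes) and limma-voom 0. KO and WT libraries did not overlap for 8 members (7.20% of all genes). Pcdhgb6 alone was higher (3.25%), and Pcdha11, Pcdhac1, Pcdhga3, Pcdhga5, Pcdhga6, Pcdhga10 and Pcdhga12 were lower (3.95%). Fitted values were below WT for 31 of 53 members, beside 49.1% of all genes, with a median log2 fold change of -0.04, beside 0.01. The median was 0.01 in alpha, -0.03 in beta and -0.09 in gamma. It was -0.39 for the gamma A members, 10 of 12 of which were below WT, and 0.22 for the gamma B members. Without KO 1 the gamma median was -0.19, and without WT 3 it was -0.17. The comparison shares its WT libraries with the former.

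KO against HxD sets the mutants side by side. Neither group holds a WT library, but the fit of all 12 libraries takes its filter, scaling and spread from WT as well. Its p-values are therefore not independent of WT. EdgeR called 0 of 53 members, beside 1.02% of all genes, and gave 4 at an unadjusted p below 0.05 (11.6% of all genes), 3 higher (5.67%) and 1 lower (5.94%). DESeq2 called 1 (Pcdhgc4, lower in KO; 3.40% of all genes) and limma-voom 0. The libraries did not overlap for 5 members (7.59% of all genes). Pcdhb3, Pcdhb6 and Pcdhb14 were higher in KO (3.97%), and Pcdha7 and Pcdhgc4 were lower (3.62%). Fitted values in KO were below HxD for 21 of 53 members, beside 49.8% of all genes. The median log2 fold change was 0.34 in alpha, 0.03 in beta and 0.04 in gamma, beside 0.00 over all genes, and -0.01 for gamma A. With the myelin markers as a covariate the alpha median was 0.10, and the gamma median was -0.054 without HxD 2, -0.046 without KO 1 and -0.052 without KO 4.

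**Figure D3:**
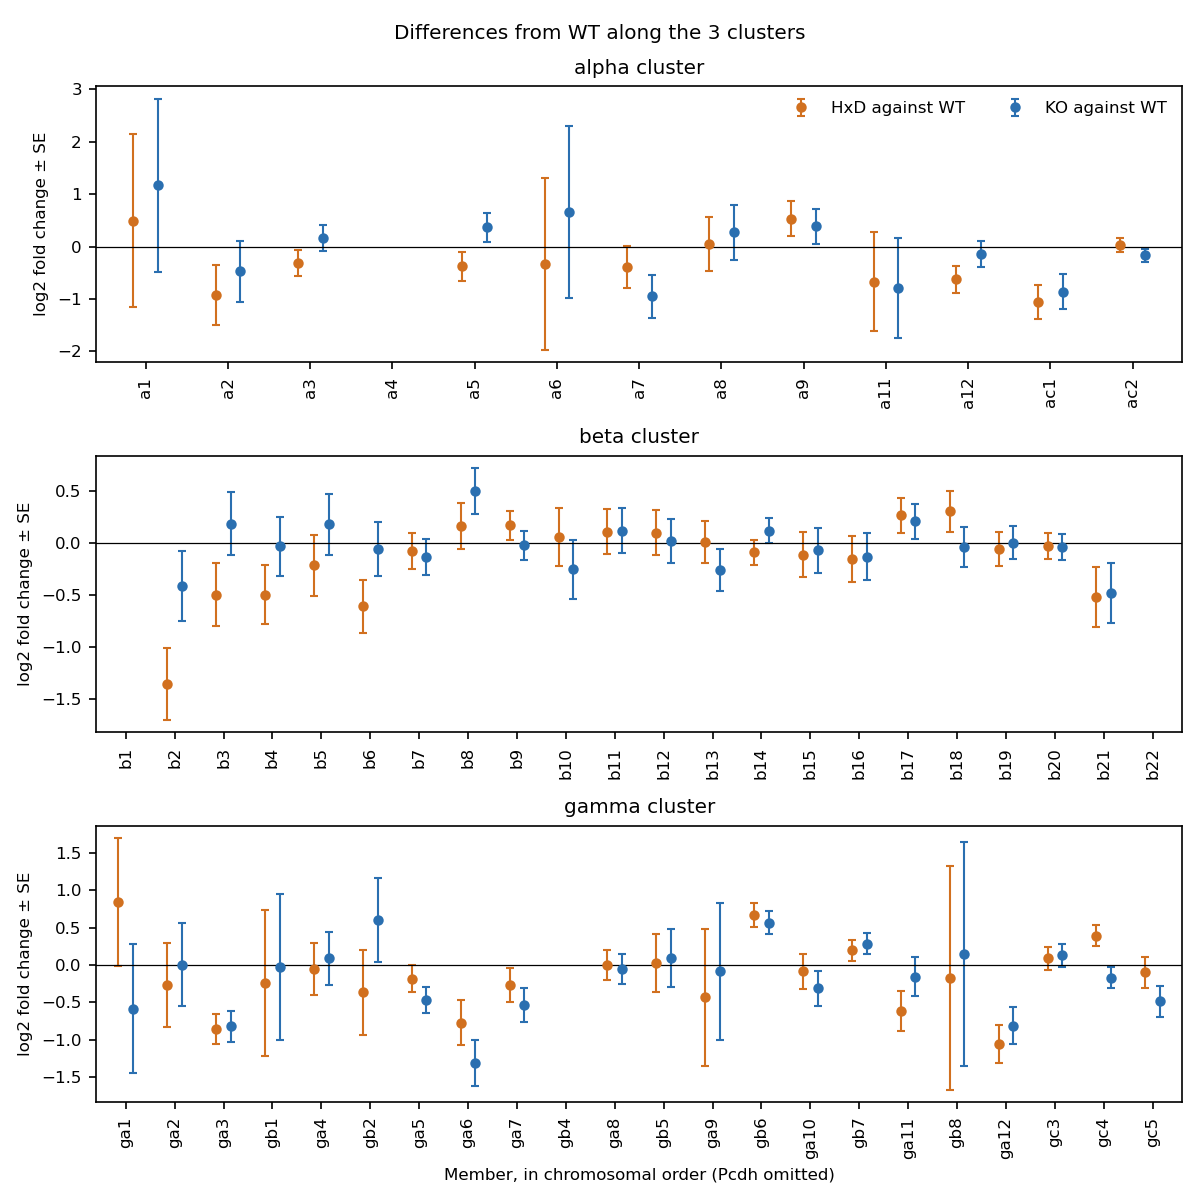
Log2 fold change with its SE from edgeR (vertical axis) for the 53 tested members against WT, along each cluster in chromosomal order (horizontal axis), for HxD and KO separately. Both contrasts share the WT libraries. Gamma A members mostly lie below 0 (11 of 12 in HxD, 10 of 12 in KO), Pcdhgb6 lies above 0 in both, and members with wide bars, such as Pcdha1 and Pcdhgb8, vary widely within a genotype.

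Among the gamma A genes, Pcdhga12, Pcdhga3 and Pcdhga6 had the smallest p. Pcdhga12, the last of the A genes, stood at 54.0, 64.9, 67.0 and 61.6 CPM in WT 1 to 4, 27.0, 22.0, 37.1 and 32.3 in HxD 1 to 4, and 41.1, 33.7, 19.1 and 47.1 in KO 1 to 4. Every mutant library was below every WT library. The log2 difference was -1.06 ± 0.25 (SE) for HxD against WT (edgeR adjusted p = 0.150) and -0.81 ± 0.25 for KO against WT (adjusted p = 0.319). With only the 8 WT and HxD libraries fitted, the edgeR adjusted p for HxD was 0.0383, and without KO 3, which lies in neither group, it was 0.0173.

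Pcdhga3 stood at 35.7, 50.6, 37.3 and 37.6 CPM in WT, 15.8, 24.7, 24.2 and 24.3 in HxD, and 21.1, 16.4, 27.4 and 26.3 in KO, in library order. Again no mutant library reached the lowest WT library. Its log2 difference from WT was -0.86 ± 0.20 in HxD (edgeR adjusted p = 0.151) and -0.82 ± 0.20 in KO (adjusted p = 0.199). Between KO and HxD it was 0.03 ± 0.20.

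Pcdhga6 stood at 44.8, 49.7, 60.9 and 45.7 CPM in WT, 14.8, 49.0, 29.3 and 24.5 in HxD, and 24.1, 19.9, 15.5 and 21.2 in KO. All KO libraries were below all WT libraries, while HxD 2 lay inside the WT range. The log2 difference from WT was -1.32 ± 0.31 in KO (edgeR adjusted p = 0.168) and -0.78 ± 0.30 in HxD (adjusted p = 0.999). Pcdhga5 gave smaller values, 31.3 ± 1.997 CPM in WT, against 27.6 ± 3.02 in HxD and 22.5 ± 5.48 in KO, with -0.47 ± 0.18 for KO against WT (adjusted p = 0.418). Pcdhga8, in contrast, differed little, at 21.7 ± 5.20, 21.7 ± 1.48 and 20.9 ± 4.84 CPM.

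In the gamma B subfamily Pcdhgb6 was the member with the smallest p. It stood at 40.8, 30.4, 48.1 and 39.1 CPM in WT, 50.7, 71.5, 65.7 and 63.9 in HxD, and 51.4, 55.6, 58.0 and 69.4 in KO. Every mutant library lay above every WT library. The log2 difference from WT was 0.67 ± 0.16 in HxD (edgeR adjusted p = 0.136) and 0.56 ± 0.16 in KO (adjusted p = 0.257). In chromosomal order it stands between Pcdhga9 and Pcdhga10. Pcdhga10 was below WT in all KO libraries, at 15.1 to 23.5 against 23.9 to 28.4 CPM.

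The C-type genes differed from each other in how they varied. Pcdhgc4, needed for the survival of inhibitory neurons in development, stood at 33.9, 38.0, 39.7 and 34.2 CPM in WT, 44.5, 51.2, 45.2 and 50.4 in HxD, and 26.5, 38.5, 26.3 and 38.3 in KO. HxD lay above both other genotypes without overlap, and WT and KO overlapped. The log2 difference was 0.39 ± 0.14 for HxD against WT (edgeR adjusted p = 0.937) and -0.56 ± 0.15 for KO against HxD (adjusted p = 0.159). Markers of inhibitory neurons differed in how they moved beside it. Gad2, a GABA-synthesising enzyme, stood at 229 ± 20.8 CPM in WT, against 298 ± 95.2 in HxD and 199 ± 8.16 in KO. Its log2 difference was 0.38 ± 0.18 for HxD against WT (edgeR adjusted p = 0.999, overlapping) and -0.58 ± 0.18 for KO against HxD (adjusted p = 0.251, no overlap), close in size to the values of Pcdhgc4. Slc32a1, the vesicular GABA transporter, gave 0.36 ± 0.18 and -0.24 ± 0.18, Sst 0.11 ± 0.15 and -0.19 ± 0.15, Gad1 0.05 ± 0.11 and 0.06 ± 0.11, and Pvalb -0.33 ± 0.59 and 1.06 ± 0.60, in the same order. The sum over these 5 markers overlapped between the genotypes. These markers were named after their values were seen, and their part in the Pcdhgc4 difference was not tested.

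Pcdhac1, the first alpha C-type, stood at 12.7, 10.9, 10.3 and 16.6 CPM in WT, 4.31, 6.24, 5.85 and 7.90 in HxD, and 9.08, 8.82, 3.32 and 6.66 in KO. All mutant libraries were below all WT libraries. The log2 difference from WT was -1.05 ± 0.33 in HxD (edgeR adjusted p = 0.577) and -0.86 ± 0.33 in KO (adjusted p = 0.439).

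Of the abundant C-types, Pcdhac2 stood at 150 ± 22.6 CPM in WT, against 152 ± 16.3 in HxD and 133 ± 18.3 in KO. Pcdhgc3 stood at 229 ± 37.5, 243 ± 40.8 and 250.2 ± 40.2 CPM. Both overlapped between all genotypes, with log2 differences from WT of 0.03 ± 0.13 and -0.17 ± 0.13 for Pcdhac2 and of 0.09 ± 0.16 and 0.13 ± 0.16 for Pcdhgc3 in HxD and KO. Pcdhgc5 stood at 199 ± 55.4, 186 ± 17.7 and 142 ± 31.8 CPM, with -0.49 ± 0.21 for KO against WT (edgeR adjusted p = 0.487). Its KO range, 101 to 177, overlapped the WT range, 149.5 to 272.

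**Figure D4:**
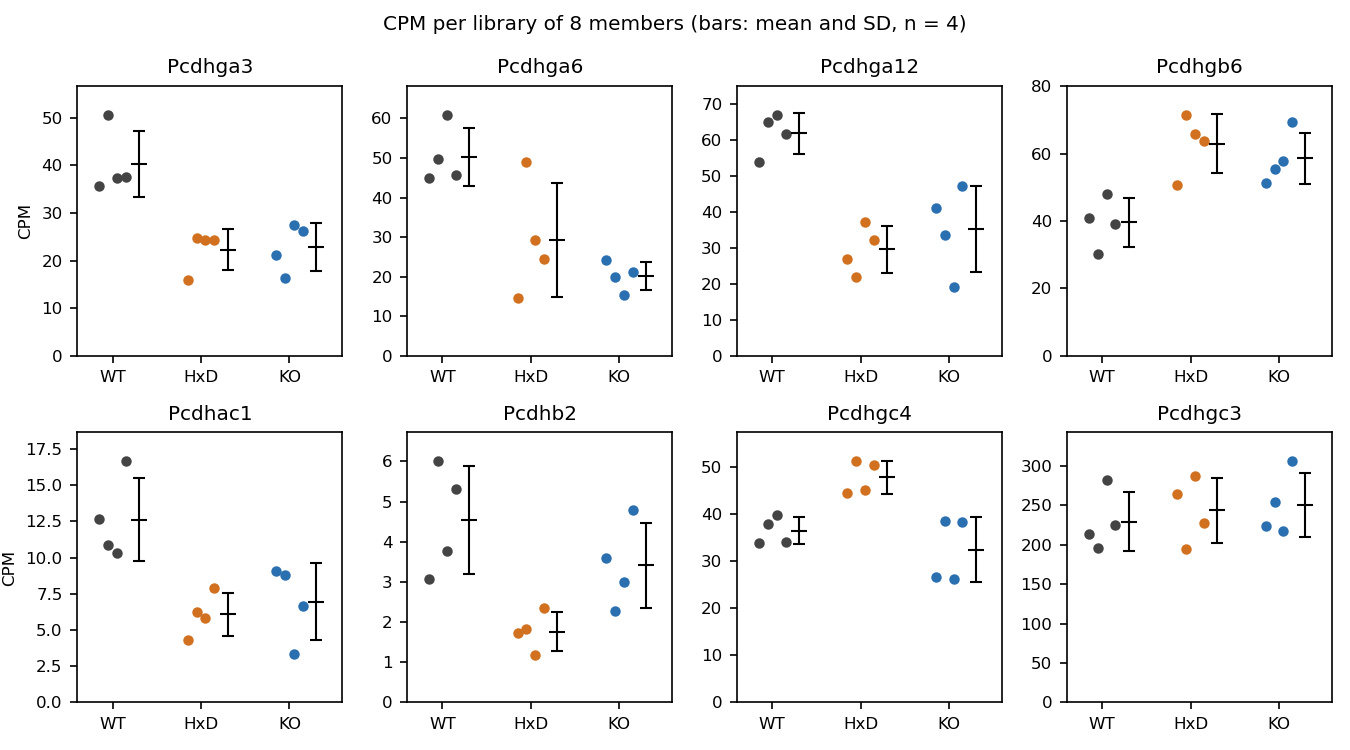
CPM per library (vertical axes, from 0) of 8 members by genotype (horizontal axis). Points are libraries, and bars give the mean and SD of 4. Pcdhga3, Pcdhga12 and Pcdhac1 are lower and Pcdhgb6 is higher in all 8 mutant libraries than in any WT library, Pcdhgc4 is highest in HxD (44.5 to 51.2), and Pcdhgc3 overlaps throughout.

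Among alpha alternates, Pcdha12 stood at 30.6 ± 8.12 CPM in WT and 19.8 ± 4.46 in HxD (log2 difference -0.63 ± 0.25, edgeR adjusted p = 0.999), and its libraries overlapped. Pcdha5 stood at 17.9 ± 6.07, 13.8 ± 1.29 and 23.1 ± 7.50 CPM in WT, HxD and KO, with 0.75 ± 0.28 for KO against HxD (adjusted p = 0.345). Pcdha7 was lower in KO, at 6.32 to 13.5 CPM, than in HxD, at 14.3 to 18.7, without overlap, but WT itself ran from 6.62 to 30.9.

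The beta members, whose single exons are almost wholly distinct in sequence from other members, gave 1 of the larger differences. Pcdhb2 stood at 3.08, 5.998, 3.77 and 5.31 CPM in WT, 1.72, 1.82, 1.17 and 2.34 in HxD, and 3.60, 2.27, 2.99 and 4.78 in KO. HxD lay below WT without overlap, and KO overlapped WT. The log2 difference was -1.36 ± 0.35 for HxD against WT (edgeR adjusted p = 0.223) and 0.94 ± 0.35 for KO against HxD (adjusted p = 0.343). Its counts were low, 10 to 24 per library in HxD and 27 to 63 in WT. Pcdhb6, at 4.64 ± 0.957, 3.04 ± 0.374 and 4.46 ± 1.06 CPM, was also lower in every HxD than in any WT or KO library. Pcdhb3, at 8.60 ± 4.10, 6.09 ± 1.15 and 9.79 ± 1.16 CPM, was lower in HxD than in KO without overlap. The abundant Pcdhb20 showed 20.3 ± 1.98, 19.9 ± 1.57 and 19.7 ± 2.09 CPM. Along the beta cluster, Spearman's rho between order and log2 difference was -0.50 for KO against HxD, 0.37 for HxD against WT and -0.13 for KO against WT (n = 20 members that share their libraries).

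Members differed in how steady they were within a genotype. No tested beta gene (0 of 20) varied by more than 5-fold (count plus 1) between libraries of the same genotype, against 3 of 12 alpha, 5 of 21 gamma and 25.7% of all tested genes. The median coefficient of variation of beta members was 17.4% in WT, 17.9% in HxD and 14.6% in KO, where counting error alone would give 10.98%, 11.2% and 11.9%. For gamma it was 17.9%, 27.9% and 23.1%, against 5.23%, 6.12% and 6.51% from counting, and for the gamma sum it was 6.67%, 8.29% and 7.37%. A sum of members cannot vary more, relative to its mean, than its members do on a weighted average. The medians given here are unweighted, so this bound does not strictly fix their order. Nothing is read from the lower value of the sum.

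The widest swings were in gamma and alpha. Pcdhgb8 held 60, 1100, 59 and 64 counts in WT 1 to 4, 932, 23, 40 and 31 in HxD 1 to 4, and 549, 24, 342 and 30 in KO 1 to 4. A single WT and a single HxD library, and 2 KO libraries, thus stood far above the others. Pcdhga9 was listed at 0 in HxD 2 and Pcdhgb1 at 0 in HxD 3, with at least 100 counts in the other HxD libraries, and Pcdha11 was listed at 0 in HxD 1 and at 158 in HxD 4. Such a step between 0 and at least 100 within a genotype occurred in 1 of 9 alpha, 0 of 13 beta and 2 of 20 gamma members that reached 100 counts, and in 10.04% of all 9250 rows that did. Leaving the unsteady Pcdhga1, Pcdhga2 and Pcdhga9 out of the gamma A sum, a choice made after seeing the data, gave 367 ± 24.1 CPM in WT, against 257 ± 14.2 in HxD and 256 ± 23.2 in KO, again with no mutant library reaching a WT library.

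**Figure D5:**
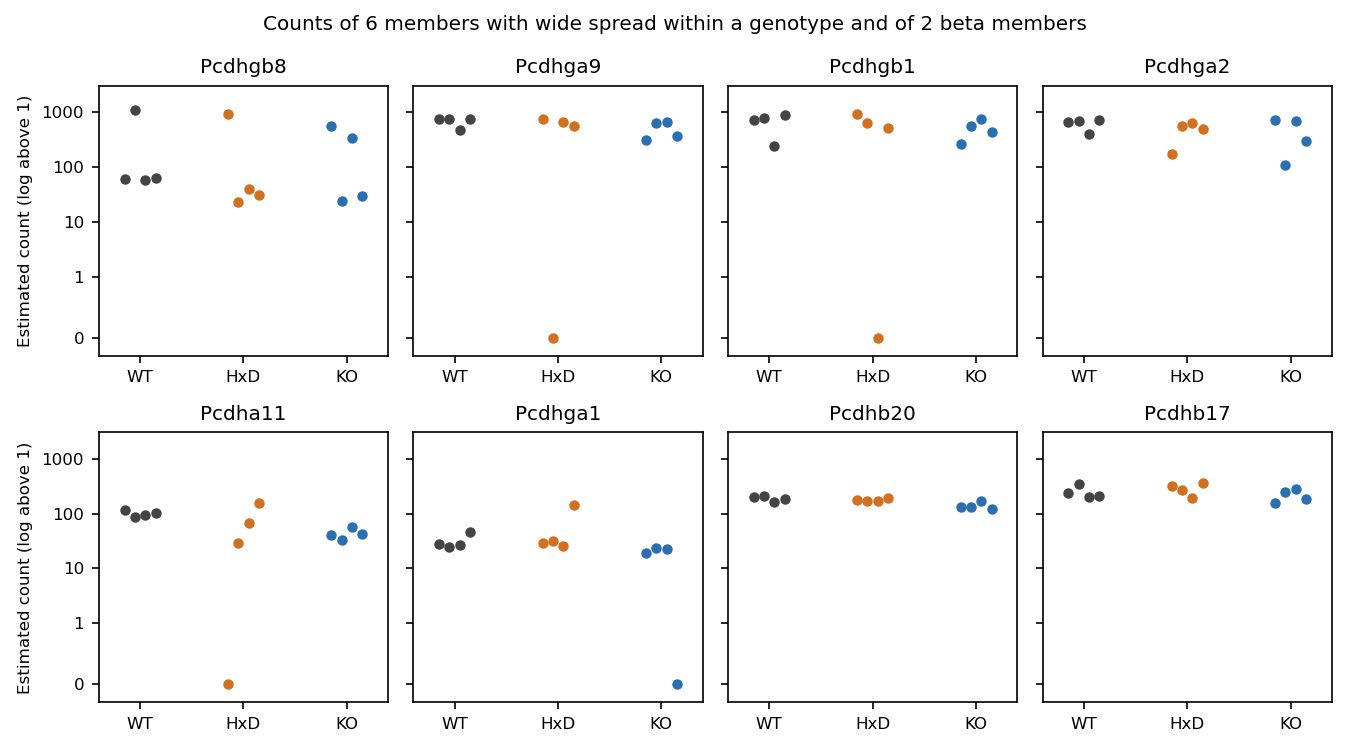
Estimated counts per library (vertical axes, logarithmic above 1, with 0 shown) by genotype (horizontal axis) for 6 members that vary widely within a genotype and 2 beta members. Points are libraries. Pcdhgb8 ranges from 59 to 1100 counts among the 4 WT libraries, and the beta members stay close together.

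Genes that act on promoter choice were read from lists. Of the CTCF and cohesin list 0 of 9 tested genes were called in any comparison by edgeR, and the smallest p belonged to Nipbl, the cohesin loader, at -0.22 ± 0.08 for KO against HxD (adjusted p = 0.351). At an unadjusted p below 0.05 the list gave Nipbl and Rad21 in that comparison, beside 11.6% of all genes, and 0 genes in the other two. Of the silencing and methylation factors 9 were tested and 1 was called, Wiz, a zinc-finger partner of the G9a and GLP methyltransferases, higher in KO than in HxD (edgeR adjusted p = 0.0406). Wiz was listed at 0 in all HxD libraries, at 17 to 129 counts in WT and at 6 to 95 in KO, so no fold is given. The call was lost in 13 of the settings tried, among them limma-voom (adjusted p = 0.399).

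Of 13 intracellular partners, which link protocadherin tails to kinases and to the WAVE complex that drives actin branching, 1 was called. Over all genes edgeR called 0.898% for HxD against WT and 1.02% for KO against HxD. Abi1, a WAVE subunit, rose in HxD against WT, from 32 to 87 counts to 297 to 1020 counts (log2 difference 3.48 ± 0.44, edgeR adjusted p = 0.00180). It was lower in KO than in HxD (-2.16 ± 0.41, adjusted p = 0.0353, a call lost in 14 of the settings tried), and was not called in KO against WT (1.32 ± 0.41, adjusted p = 0.319). Ptk2b, a kinase of the same list named after its values were seen, was not called. It held 1521 to 4669 counts in HxD, against 64 to 119 in KO without overlap, but WT itself ran from 74 to 4048. Of the membrane partners 2 were tested and 0 called, with the smallest p for Ret at 0.44 ± 0.32 for HxD against WT (adjusted p = 0.999).

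Of the non-clustered protocadherins, related adhesion genes elsewhere in the genome, 0 of 9 tested were called. Pcdh11x came closest, with 0 to 12 counts in WT, against 95 to 183 in HxD and 0 to 267 in KO (4.99 ± 1.38 for KO against WT, adjusted p = 0.257). DESeq2 called it in that comparison (adjusted p = 0.00387). At an unadjusted p below 0.05 edgeR gave Pcdh11x in HxD against WT (4.05% of all genes) and in KO against WT (9.48%). Pcdh17 passed this bar in KO against HxD (11.6% of all genes). Of 9 tested genes that flank or lie between the clusters 0 were called. Taf7, a subunit of the general transcription factor TFIID whose gene lies between the beta and gamma clusters, stood at 16.2 ± 1.21 CPM in WT, against 17.4 ± 1.88 in HxD and 25.0 ± 3.92 in KO. KO lay above both other genotypes without overlap, with 0.63 ± 0.14 against WT (edgeR adjusted p = 0.144) and 0.52 ± 0.14 against HxD (adjusted p = 0.186). DESeq2 called both differences (adjusted p = 0.00157 and 0.0128).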

How the data were processed

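Poly(A) RNA libraries of adult cortex were made for 12 samples, per the labels' protocols. The submitters' processing notes name StringTie 2.2.3, the aligner STAR 2.7.1a, Trim Galore 0.6.7, FastQC and SAMtools 1.9, with the builds mm10 and GRCm39. The build used is therefore unsettled and no coordinates are given. The authors deposited whole-number values per gene symbol and library without normalization, which were read as estimated counts because many rows step between 0 and at least 100 within a genotype. Rounding changed nothing. The counting rule, like the strand setting, is not given in the sources used here. Left out were 25 symbols on several rows, none of them a member.

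CPM values were computed here from the summed counts of tested genes times the TMM factor. The test was edgeR 4.0.16 (R 4.3.3), quasi-likelihood with a robust fit and filterByExpr at a minimum count of 10, with all 12 libraries in 1 fit, 9 residual degrees of freedom and Benjamini-Hochberg adjustment over 11693 genes. Of 57 members 53 passed the filter. SE is the absolute log2 fold change over the root of F. Transcript lengths, exons and CpG content came from GENCODE M21, a GRCm38 annotation. Depth limits counting error only, because reads lacking molecular identifiers need not be separate molecules.

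The members, lists and alternatives were chosen with earlier results of these data known. Genes were named by a rule: the C-types, up to 6 members with the smallest p per comparison, the 2 highest and 2 lowest members per cluster in WT, members that did not pass the filter or stepped between 0 and 100, and from other lists called genes or the gene with the smallest p, with Taf7. Other members (Pcdhb3, Pcdhb6, Pcdhga2, Pcdhga8, Pcdhga10, Pcdhgb8, Pcdha7, Pcdhga1 and those of the flagged values) were named after their values were seen. Alternatives were DESeq2 1.42.0, limma 3.58.1 (voom), other size factors and filters, the 8 libraries compared, a replicate block, a myelin covariate and each library left out. On simulated data for KO against WT with 11505 genes, edgeR recovered 21% of 100 genes set 2-fold apart and 64% of 100 set 4-fold apart, with 1 call among unchanged genes. For simulated KO against HxD with the same 11505 genes it recovered 21% and 65%, with 6 calls among unchanged genes. The simulated spread followed the trend over level alone, without a spread particular to each gene and without built-in steps to 0. The changed genes were picked above a minimum mean count. These rates therefore need not hold for the real libraries or for members with low counts.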

Additional observations from a re-analysis of the deposited data

Results flagged for a closer look

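In 10 of 159 groups of a member and a genotype, 1 of the 4 libraries stood far from the other 3 (its gap to the nearest, divided by the group's range, above Dixon's critical value). Chance flags about 1 in 20 groups, and the causes were not tested. Among these groups Pcdhgb8 had the widest range, with 104.7 CPM in WT 2 (6.42 to 7.17 in the others) and 100.3 CPM in HxD 1 (2.99 to 4.68). Pcdha2 stood at 5.98 CPM in HxD 2 (2.15 to 2.80) and at 10.8 in KO 4 (2.35 to 3.08). Pcdhga1 stood at 13.9 CPM in HxD 4 (3.04 to 4.03), and Pcdhga4 at 26.5 in WT 2 (11.8 to 13.3).

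Pcdhga3, lower in both mutants than in WT, was set apart in WT 2 by 50.6 CPM (35.7 to 37.6 in the others) and in HxD 1 by 15.8 (24.2 to 24.7). Among beta members, Pcdhb16 stood at 19.5 CPM in WT 1 (12.0 to 12.6), and Pcdhb17 at 22.7 in HxD 3 (33.5 to 35.0). The sum of the alpha alternates was 106.8 CPM in WT 4 (114.7 to 115.0 in the others) and 108.5 in HxD 4 (80.9 to 84.7).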

How the results depend on the processing

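Called members by DESeq2 numbered 1 for KO against HxD, 4 for HxD against WT and 3 for KO against WT, where edgeR called 0. With only the 8 libraries compared edgeR called 1 for HxD against WT, and leaving out each library gave 0 to 1 (1 without KO 3). In all other settings and comparisons run 0 were called. The median of alpha members for KO against HxD was 0.10 with the myelin covariate. Leaving out libraries moved the gamma median from -0.33 (without HxD 1) to -0.0493 (without HxD 2) for HxD against WT, from -0.0543 to 0.0916 for KO against HxD and from -0.19 to -0.0836 for KO against WT. The gamma A log2 ratio of KO to WT, -0.37, was -0.52 without Pcdhga1, Pcdhga2 and Pcdhga9, and over libraries left out -0.40 to -0.34 (HxD to WT: -0.55 to -0.41). Signs turned with the covariate for Pcdhac1 in KO against HxD (-0.17) and Pcdhgc3 in HxD against WT (-0.0386), and with libraries left out for Pcdhac2 (-0.0457 to 0.0834), Pcdhgc3 (-0.00857 to 0.204) and Pcdhgc5 (-0.215 to 0.0891) in HxD against WT and Pcdhgc3 in KO against HxD (-0.0843 to 0.126), all uncalled. The cause of these moves was not tested.

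With the replicate number as a block edgeR called 0 members in each comparison, and 9, 8 and 2 had an unadjusted p below 0.05. Same-numbered libraries correlated at -0.07 to 0.08 over 12 pairs, 0 of them above 0.1, so the numbers were not read as pairing. The calls of Wiz (adjusted p = 0.124) and of Abi1 in KO against HxD (0.167) were lost under the block.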

Other observations

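The 5 neighbouring genes at the start of the tested beta cluster, chosen after their values were seen, all had fitted HxD values below WT. The log2 differences were -1.36 ± 0.35 for Pcdhb2, -0.50 ± 0.31 for Pcdhb3, -0.50 ± 0.28 for Pcdhb4, -0.22 ± 0.29 for Pcdhb5 and -0.61 ± 0.26 for Pcdhb6. For KO against HxD the values of these genes were 0.94 ± 0.35, 0.68 ± 0.31, 0.46 ± 0.28, 0.39 ± 0.29 and 0.55 ± 0.26, from the same HxD libraries, and edgeR called 0 of them in either comparison. Over all 20 tested beta members 12 were below WT in HxD. Pcdhb4 stood at 4.13 ± 0.425, 2.92 ± 0.816 and 4.04 ± 0.981 CPM in WT, HxD and KO, and Pcdhb5 at 11.3 ± 2.33, 9.70 ± 4.61 and 12.7 ± 0.841. Their ranges overlapped.

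Pcdhga2 stood at 65.0 ± 12.2 CPM in WT, against 54.0 ± 26.4 in HxD and 65.2 ± 44.4 in KO, with counts of 109 to 705 among the KO libraries, so its spread there exceeded any difference between genotypes.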
